A study of Arabidopsis with 6 samples.

Results

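RBR proteins are ubiquitin ligases in which an in-between-RING (IBR) zinc-binding domain lies between a pair of RING-type zinc fingers. The report concerns 10 listed Arabidopsis loci of the plant-specific group of these genes, outside the ARIADNE subfamily, and 8 of the 10 had a probe set of their own among the 13286 genes measured. The loci were chosen as family members with earlier results of the same comparison known, and AT5G60250 was included because it was strongly raised in the mutant. The values of the comparison between genotypes are therefore given for these loci as a description, and calls and intervals from the fit over all probe sets are printed for them only to show the error and are no evidence of a change.

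Transcript levels were measured on Affymetrix ATH1 arrays in the above-ground parts of Arabidopsis thaliana grown on soil for 21 days at 22 °C, with 8 h of light and 16 h of dark. One group was wild type of cultivar Col-3, and the other was the apum23 mutant, named apum23-1 in the growth protocol and labelled with the same cultivar, with 3 arrays in each group. Replicates 2 and 3 of the mutant are described as apum23-2 and apum23-3, and the labels do not say whether these are replicate numbers or further alleles. APUM23 encodes a nucleolar Pumilio-family RNA-binding protein of ribosomal RNA processing, and its own transcript is not analysed here, so it gives no check of the genotype labels.

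In an RBR ligase the first RING domain binds a ubiquitin-loaded conjugating enzyme (E2). The ubiquitin is then passed to a cysteine in the second RING domain before it reaches the substrate, so RBR ligases combine features of RING and HECT ligases. The best known human member is parkin. In Arabidopsis, RSL1 (RING finger of Seed Longevity 1, AT2G26130) and related RBR proteins have been linked to the turnover of abscisic acid receptors. For most of the listed loci no individual role is stated here, because none is known with certainty from the sources used.

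The values, as deposited, are log2 intensities of probe sets. Array medians ran from 5.34 to 6.10 and lower quartiles from 3.41 to 3.84, and intensities at or below the lower quartile are close to the background, where a log2 difference has an uncertain size. The 18 spiked-in hybridization controls averaged 5.36 (log2 intensity) on wild-type replicate 1 and 9.42 to 9.74 on the remaining arrays. Differences are therefore also given without wild-type replicate 1 for the listed loci and for some other genes. Of 14 green tissue markers 2 were measured. RCA (Rubisco activase) lay at 13.56 to 13.85 and PRK (phosphoribulokinase of the Calvin cycle) at 12.09 to 12.87 on the 6 arrays. Of 7 root markers 3 were measured, and of 5 flower and seed markers 0. The root hair expansin genes EXPA7 and EXPA18 lay at 3.43 to 4.36, and PYK10, a beta-glucosidase gene best known from roots, at 7.34 to 8.69. None of the 5 measured markers was called between genotypes (limma adjusted p from 0.403 to 1), although PRK was called lower after quantile normalization (-0.44 on the log2 scale, limma adjusted p = 0.0172). No unadjusted limma p of these 5 markers was under 0.05 on the deposited values. These markers' part in the results below was not tested. In whole above-ground tissue, a change in the share of a cell type and a change in RNA per cell cannot be told apart.

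AT5G60250, on chromosome 5, was close to the background in wild type and well above it in apum23. Its log2 intensity was 3.19, 3.94 and 3.46 on wild-type replicates 1, 2 and 3. On apum23 replicates 1, 2 and 3 it was 7.54, 7.81 and 7.92. The groups did not overlap, and the lowest apum23 array exceeded the highest wild-type array by 3.60 on the log2 scale. On 2 of the 3 wild-type arrays the value lay below that array's lower quartile, while none of the apum23 arrays was that low.

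The group means of AT5G60250 were 3.53 ± 0.38 in wild type and 7.76 ± 0.20 in apum23 (log2 intensity, SD, n = 3 each). The difference was 4.22 on the log2 scale. Because wild type lay close to the background, its size is uncertain and no fold is given. After quantile normalization the means were 3.59 ± 0.26 and 7.71 ± 0.08, a difference of 4.13. Without wild-type replicate 1 the difference was 4.05, and it was 4.005 when only apum23 replicate 1 stood for the mutant.

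The other 7 measured loci were all dim in both genotypes. Every one of their 42 values lay below the lower quartile of its array, from 2.69 to 3.57 on the log2 scale, and within a genotype their SDs were 0.09 to 0.35. For each of the 7 the wild-type and apum23 arrays overlapped on the deposited values. At this signal a small difference or a fall was not detectable. The dim signal and the overlap are not evidence that these genes were silent or that their levels were alike. AT5G60250 was also close to the background in wild type, but it was listed for its rise. Nothing is therefore read from the smaller differences of the 7.

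**Figure D1:**
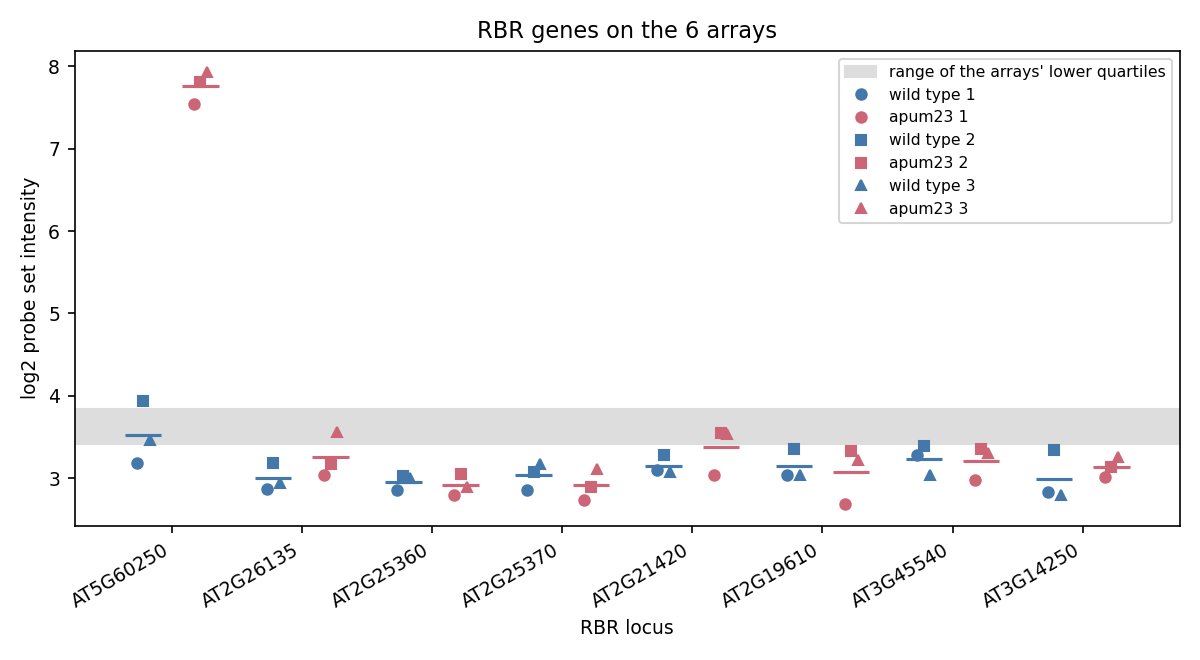
Log2 probe set intensity (vertical axis) of the 8 measured RBR loci on the 3 wild-type arrays (blue) and the 3 apum23 arrays (red), with marker shapes for replicates 1 to 3, short lines for group means, and a grey band from the lowest to the highest array lower quartile (3.41 to 3.84). AT5G60250 lay at 7.54 to 7.92 in apum23, and the other 7 loci lay at 2.69 to 3.57 in both genotypes.

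The dim loci fall into pairs of gene neighbours and single genes. AT2G25360 and AT2G25370 are adjacent on chromosome 2 in the RefSeq gene order of assembly TAIR10.1. AT2G25360 had log2 intensities of 2.85, 3.03 and 3.00 on the wild-type arrays and 2.80, 3.05 and 2.89 on the apum23 arrays. AT2G25370 had 2.86, 3.08 and 3.17 in wild type, against 2.74, 2.89 and 3.11 in apum23. Both means were slightly lower in the mutant, by differences of -0.05 and -0.12 on the log2 scale, less than the SD between arrays of a genotype (0.09 to 0.18).

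AT2G26135 lies next to RSL1 on the same chromosome. It had 2.87, 3.18 and 2.94 in wild type, against 3.04, 3.18 and 3.57 in apum23. Its difference of 0.26 on the log2 scale was the highest of the 7 dim loci, and it came mainly from apum23 replicate 3. Without that array the difference was 0.11. RSL1 itself had no probe set in the table of gene names and is not analysed here.

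The remaining loci on chromosome 2, AT2G21420 and AT2G19610, each stand alone in the gene order among the listed loci. AT2G21420 had 3.10, 3.29 and 3.08 in wild type, against 3.04, 3.55 and 3.54 in apum23, so the last 2 apum23 arrays were above wild type and the first was below. AT2G19610 had 3.04, 3.36 and 3.04 in wild type, against 2.69, 3.33 and 3.22 in apum23, with its lowest value on apum23 replicate 1. Their differences were 0.22 and -0.06 on the log2 scale. When only apum23 replicate 1 stood for the mutant they were -0.12 and -0.46.

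On chromosome 3, AT3G45540 had 3.28, 3.39 and 3.04 in wild type, against 2.98, 3.35 and 3.30 in apum23. AT3G14250 had 2.83, 3.35 and 2.79 in wild type, against 3.01, 3.14 and 3.26 in apum23. The differences were -0.03 and 0.15 on the log2 scale, and wild-type replicate 2 was the highest wild-type array for both. AT3G45580, separated from AT3G45540 by 4 genes, shares its only probe set with the neighbouring AT3G45570, so no value is given for it.

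The values of the dim loci moved with the array as well. On the deposited scale all 7 were lowest, among the apum23 arrays, on replicate 1, and 6 of 7 were highest, among the wild-type arrays, on replicate 2. The median over the 7 loci was 2.87, 3.29 and 3.04 on wild-type replicates 1, 2 and 3, where the lower quartile of all probe sets was 3.41, 3.69 and 3.50. On the apum23 arrays the median was 2.98, 3.18 and 3.26 and the lower quartile 3.43, 3.69 and 3.84, so within each genotype both measures put the arrays in the same order. After quantile normalization the counts were 2 of 7 and 3 of 7.

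Of the 8 measured loci, limma called 1 higher in apum23 (AT5G60250, 0 lower), against 5.31% of all probe sets called higher and 1.38% called lower. Over all probe sets the calls were 1208 higher and 314 lower, and without wild-type replicate 1 they were 779 and 851. The call required a Benjamini-Hochberg adjusted p under 0.05 over all 22746 probe sets, and the smallest absolute difference called was 0.66. After quantile normalization the count was again 1 higher, AT5G60250, and 0 lower, against 9.69% and 10% of all probe sets. The 3 arrays of each group did not overlap for 1 of the 8, with all apum23 arrays above, against 11.0% of all probe sets, and for 0 of the 8 with all apum23 arrays below, against 3.12%. Since the comparison was part of how the loci were chosen, nothing is read from these counts.

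The median difference of the 8 loci was 0.06 on the log2 scale, against 0.08 over all probe sets. AT5G60250, chosen for its rise, is among the 8, and the median of the other 7 was -0.03. After quantile normalization the median was -0.02 for the 8 loci and -0.02 over all probe sets. The 7 loci other than AT5G60250 had differences of -0.12 to 0.26 on the deposited values, -0.21 to 0.20 without wild-type replicate 1 and -0.19 to 0.17 after quantile normalization. After quantile normalization the groups of AT2G25370 were barely apart, with wild-type values of 2.9518, 2.98 and 3.28 and apum23 values of 2.93, 2.75 and 2.9515. Its difference of -0.19 was not called. The share of all probe sets without overlap on that scale was not computed, so nothing is read from this separation.

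Other RBR genes of Arabidopsis were compared from a list of 15 loci outside the ARIADNE subfamily, chosen by family and not by how they moved. Of the 9 measured, 0 rose and 0 fell in limma's test on the deposited values, with 1 of 9 at an unadjusted p under 0.05 (AT4G19670). With 5.31% of all probe sets called higher and 1.38% lower, a count of 0 among 9 genes says little. Their median difference was 0.10 on the log2 scale, close to the 0.08 of all probe sets. On all 6 arrays 4 of the 9 lay below the lower quartile.

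AT4G19670 lay well above the arrays' lower quartiles in both genotypes. Its log2 intensity was 6.93, 7.24 and 7.61 on the wild-type arrays and 7.65, 7.61 and 7.94 on the apum23 arrays. The means of 7.26 ± 0.34 and 7.73 ± 0.18 (SD, n = 3 each) differed by 0.47 ± 0.22 on the log2 scale (SE, limma adjusted p = 0.263), with 1 apum23 array just under the highest wild-type array. Without wild-type replicate 1 the difference was 0.31 and was not called. After quantile normalization AT4G19670 was called higher, by 0.37 (limma adjusted p = 0.0197).

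The RBR genes around AT3G45540 on chromosome 3 lay below or just above the arrays' lower quartiles in both genotypes. AT3G45460 was at 3.97 ± 0.13 in wild type and 4.004 ± 0.20 in apum23, AT3G45480 at 2.81 ± 0.12 and 2.98 ± 0.20, and AT3G45510 at 2.87 ± 0.13 and 3.02 ± 0.17 (log2 intensity, SD, n = 3 each). AT3G45560 was at 3.48 ± 0.05 and 3.42 ± 0.05. None of the 4 was called on either scale, with limma adjusted p of 0.92 to 0.995 on the deposited values.

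**Figure D2:**
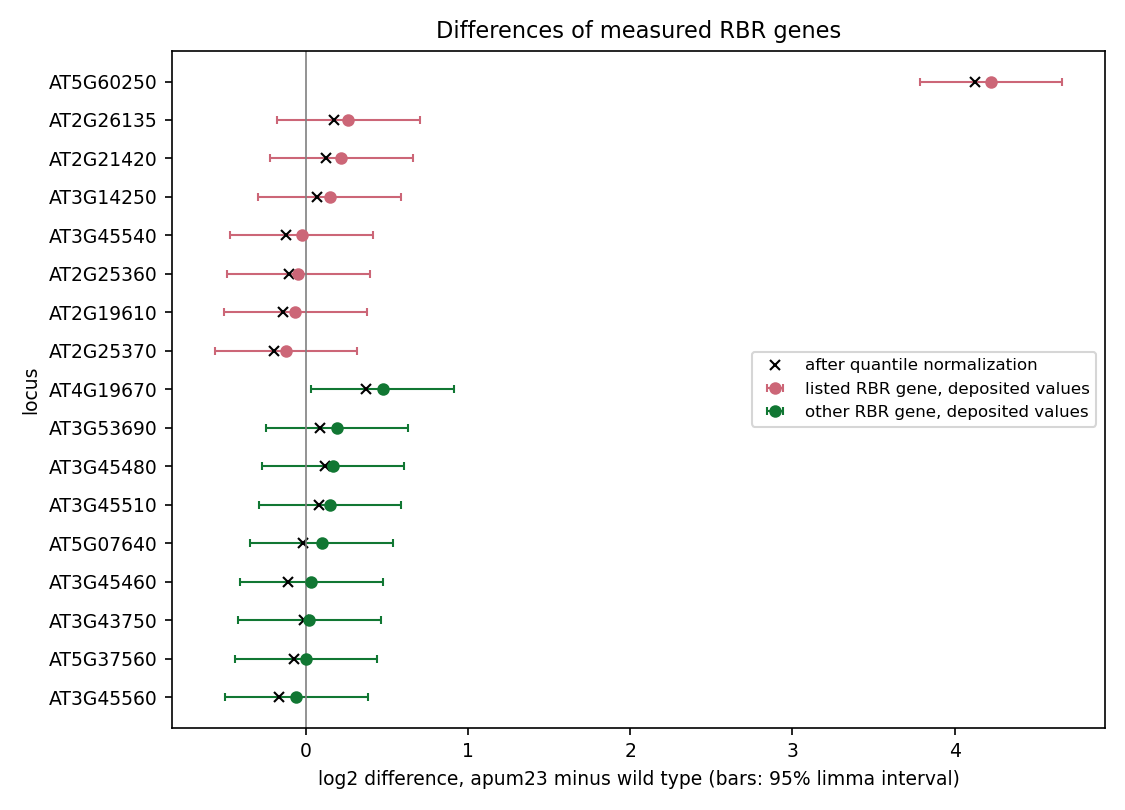
Log2 difference, apum23 minus wild type (horizontal axis), of the 8 measured listed RBR loci (red) and 9 other measured RBR genes (green), with bars for the 95% limma interval (half-width 0.44) and crosses for the value after quantile normalization. AT5G60250 stood at 4.22, and the next highest was AT4G19670 at 0.47.

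The genes near AT5G60250 in the RefSeq gene order are given as a description. AT5G60250 was listed for its rise, which ranked 2 from the top among all probe sets. Nothing is therefore read from smaller differences of the genes near it. Of the 3 genes on each side, 3 had a probe set of their own. Their wild-type means of 3.29 to 3.97 lay close to the arrays' lower quartiles of 3.41 to 3.84, where a log2 difference has an uncertain size. AT5G60240, immediately before it, was at 3.97 ± 0.27 in wild type and 4.10 ± 0.25 in apum23 (log2 intensity, SD, n = 3 each; limma adjusted p = 0.956). TET4, a tetraspanin gene, was at 3.29 ± 0.32 and 3.39 ± 0.09 (limma adjusted p = 0.978). AT5G60260, immediately after it, was at 3.93 ± 0.08 and 4.52 ± 0.39, a difference of 0.59 on the log2 scale that was not called on the deposited values (limma adjusted p = 0.101). It was called after quantile normalization, at 0.44 (limma adjusted p = 0.0239), and on the deposited values with the replicate number as a block. Without wild-type replicate 1 its difference was 0.55 and was not called.

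Around all 10 listed loci, 23 flanking genes that are not themselves listed were measured, within 3 genes on either side. On the deposited values limma called 3 of these higher and 0 lower, and 20 did not pass, against 5.31% and 1.38% of all probe sets. After quantile normalization 4 were called higher and 0 lower, against 9.69% and 10%. CHR34, which encodes a chromatin remodelling factor of the SNF2 type, lies 3 genes from the dim AT2G21420 and rose from 3.18 ± 0.19 to 4.45 ± 0.29 (limma adjusted p = 1.4e-06). Its wild-type mean lay below the arrays' lower quartiles of 3.41 to 3.84, so the size of its difference is uncertain. Without wild-type replicate 1 the difference of CHR34 was 1.20. AT2G21440, 2 genes from AT2G21420 and encoding a protein with RNA-recognition motifs, rose from 6.41 ± 0.23 to 7.34 ± 0.31 (limma adjusted p = 0.00132). It was called without wild-type replicate 1 (0.82), but it was not called without apum23 replicate 3 (0.78). AT2G25355, next to AT2G25360, rose by 0.67 on the log2 scale (limma adjusted p = 0.0441). It was called only without wild-type replicate 3 when single arrays were left out, with differences of 0.31 to 0.88.

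**Figure D3:**
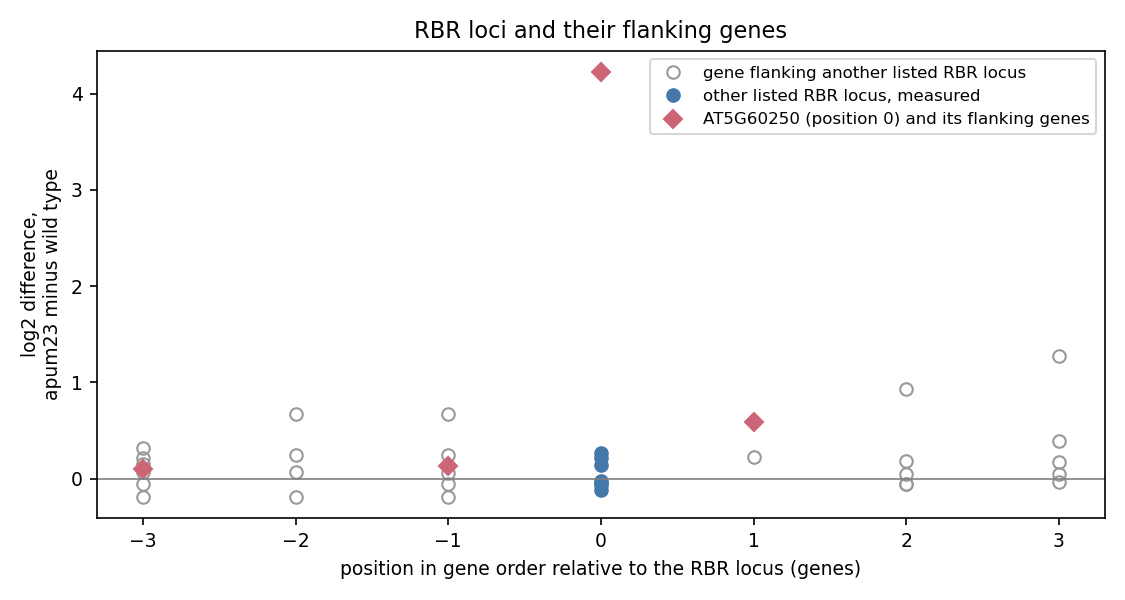
Log2 difference, apum23 minus wild type (vertical axis), by position in gene order (horizontal axis, in genes) relative to each listed RBR locus at 0. AT5G60250 and its measured flanking genes are red diamonds, other measured RBR loci are blue points and genes flanking them are open circles, drawn at each position they take. AT5G60250 stood at 4.22, and the highest flanking gene, CHR34, at 1.28. Both were close to the background in wild type, so the size of these differences is uncertain.

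The genes whose log2 values followed AT5G60250 most closely over the 6 arrays were found by Pearson's r among 13285 other genes. The 5 highest were AT1G17960 (r = 0.997), AT3G45730 (r = 0.997), AT2G04050 (r = 0.996), AT2G03130 (r = 0.996) and AT3G55920 (r = 0.995). The 6 points of each gene are the same arrays in 2 groups, so r mainly reflects the difference between genotypes, and 170 genes had r above 0.95. AT1G17960 belongs to the threonyl-tRNA synthetase family, AT2G04050 to the MATE efflux family and AT3G55920 to the cyclophilins.

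AT2G03130, of the ribosomal protein L12 and ClpS adaptor family, had 3.73, 3.95 and 3.57 in wild type, against 6.18, 6.34 and 6.57 in apum23. AT3G45730 had 4.69, 4.85 and 4.59 in wild type, against 7.25, 7.37 and 7.52 in apum23. On the deposited values of all 5 genes, as in AT5G60250, wild-type replicate 2 was the highest wild-type array and apum23 replicate 3 the highest apum23 array. The lower quartile of all probe sets was also highest in its genotype on these arrays (3.69 and 3.84). After quantile normalization AT5G60250 was at 7.65, 7.80 and 7.675 on apum23 replicates 1, 2 and 3, so replicate 2 was then the highest. The differences of the 5 genes were 2.61 to 5.64 on the log2 scale, as a description of genes selected for this pattern. On every wild-type array AT2G04050 (3.12, 3.45 and 3.10) and AT3G55920 (2.85, 3.00 and 2.89) lay below the lower quartile. The size of their differences is therefore uncertain. It is also uncertain for AT1G17960 (3.61, 3.86 and 3.59) and AT2G03130, which lay just above the lower quartile on every wild-type array.

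**Figure D4:**
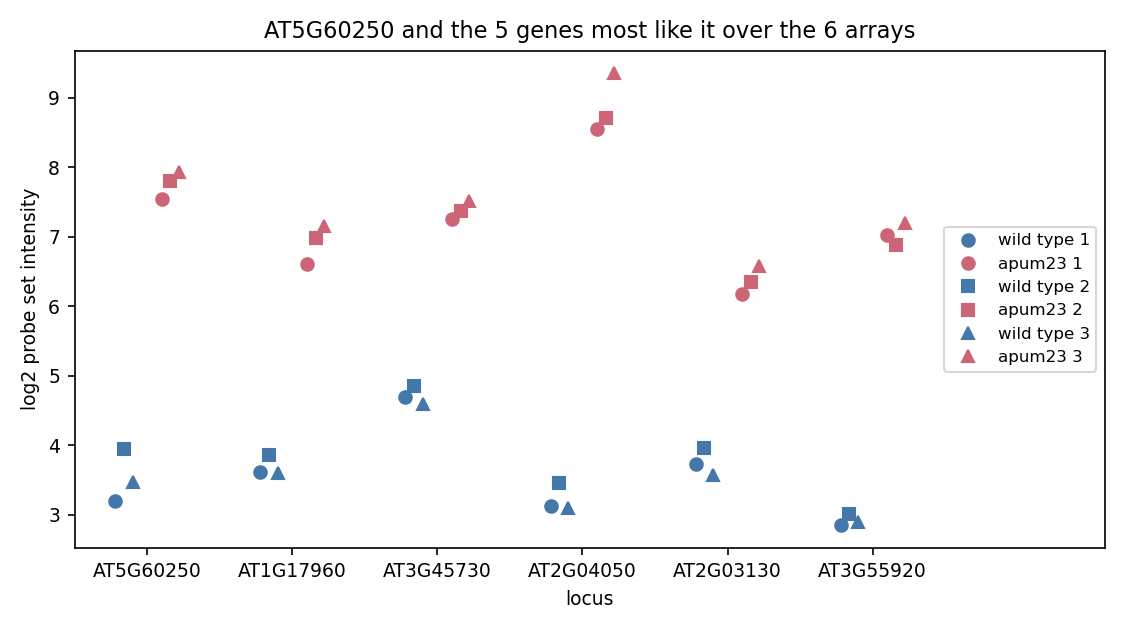
Log2 probe set intensity (vertical axis) of AT5G60250 and the 5 genes most like it by Pearson's r, on the 3 wild-type arrays (blue) and the 3 apum23 arrays (red), with marker shapes for replicates 1 to 3. On these deposited values wild-type replicate 2 was the highest wild-type array and apum23 replicate 3 the highest apum23 array in all 6 genes. The lower quartile of all probe sets was also highest in its genotype on these arrays.

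Other parts of the ubiquitin pathway were compared from lists chosen by function. Of 37 genes for ubiquitin-conjugating enzymes, the partners that load RBR ligases with ubiquitin, 13 were measured. Limma called 1 higher and 0 lower, and 12 did not pass, near the 5.31% and 1.38% of all probe sets, with a median difference of 0.04 on the log2 scale. UBC20, an E2 gene known from cell-cycle ubiquitination, rose from 7.56 ± 0.13 to 8.25 ± 0.32 (log2 intensity, SD, n = 3 each; limma adjusted p = 0.036), with 7.42, 7.59 and 7.67 on the wild-type arrays and 7.88, 8.40 and 8.47 on the apum23 arrays. The groups did not overlap, but UBC20 was no longer called without wild-type replicate 1 (0.62) or 2 (0.70) or without apum23 replicate 2 (0.62) or 3 (0.58). Its close relative UBC19 was at 8.49 ± 0.26 and 8.57 ± 0.28 (limma adjusted p = 0.985).

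After quantile normalization UBC20 was called higher, by 0.62, and 3 of the 13 conjugating enzyme genes were called lower, where 9.69% of all probe sets were higher and 10% lower. These were UBC16 (-0.32), UBC28 (-0.33) and UBC29 (-0.34), named after their values were seen, with limma adjusted p of 0.038, 0.0335 and 0.0294. On the deposited values the 3 differed by -0.17 to -0.31 and were not called.

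The proteasome degrades many ubiquitinated proteins. Of 29 genes for its regulatory particle 8 were measured, and limma called 0 higher and 0 lower on either scale, with no unadjusted p under 0.05 on the deposited values. The shares of all probe sets were 5.31% higher and 1.38% lower on the deposited values and 9.69% and 10% after quantile normalization. Their median difference was 0.16 on the log2 scale, and the largest belonged to RPN12a, a lid subunit gene, at 9.59 ± 0.24 in wild type and 9.85 ± 0.28 in apum23 (limma adjusted p = 0.769). Of 23 core particle genes only AT1G79210 was measured, at 8.21 ± 0.34 and 8.08 ± 0.36 (limma adjusted p = 0.96). The genes for ARIADNE-type RBR ligases, ubiquitin-activating enzymes, HECT ligases and polyubiquitin on the lists had no single-gene probe set in the table of names and are not analysed here.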

How the data were processed

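The deposited table holds log2 probe set intensities of 6 arrays, and per the submitters' processing notes the authors used RMA and limma, with no version given. Array medians differ, so the values do not carry a quantile step across these arrays. Of 22810 probe sets, 64 controls were left out. The platform table names 1 gene for 13513 of the others, several for 503 and none for 8730, and 13436 were matched to RefSeq genes (TAIR10.1). The brightest single-gene probe set stood for each gene, and the 8 measured loci had 1 each.

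The test was limma's (version 3.58.1, under R 4.3.3), with lmFit and eBayes, two-sided and without a block, with Benjamini-Hochberg adjustment over 22746 probe sets and calls at an adjusted p under 0.05. On the deposited values limma gave every probe set the same standard error of 0.22 (median 0.11 after quantile normalization), so calls rest on a spread pooled over all probe sets. The number of arrays limits the precision. The labels do not say how plants were pooled, so p-values refer to these samples. Named genes were all listed loci, of each list the called gene with the largest change in each direction or else the gene with the largest difference, the 5 genes with the highest r to AT5G60250, and measured markers. UBC19, the genes near AT5G60250 and the RBR genes near AT3G45540 were named for their relation to these. Of the genes flanking the other listed loci, those called on the deposited values were named. UBC16, UBC28 and UBC29 were named for their calls after quantile normalization. The loci and lists were chosen with earlier results of these data known. Family membership was taken as listed. The planned search for a protein pattern and for promoter motifs was not run, and no sequences were used here. The replicate numbers are not stated to pair arrays, so they were not taken as pairs. Same-numbered arrays' deviations correlated at -0.29, 0.11 and 0.16, which does not settle whether they are pairs. Alternatives were quantile normalization, median centring, the replicate block, a filter on dim probe sets, robust trended variances, single arrays left out, apum23 replicate 1 alone, a fold threshold and all probe sets of a locus. Quantile normalization without wild-type replicate 1 was added after seeing the data.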

Additional observations from a re-analysis of the deposited data

How the results depend on the processing

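AT5G60250 was chosen for its high value in apum23, so the alternatives do not test it; as a description, its difference was 4.005 to 4.43 on the log2 scale over them. None of the other 7 loci was called in any alternative that covered it. The replicate block added a call for AT5G60260 (0.59), left the listed loci at 1 call and gave 2604 calls over all probe sets against 1522. The total was 4481 after quantile normalization, 2997 with median centring (1196 higher, 1801 lower), 3717 after quantile normalization without wild-type replicate 1, 452 when a log2 difference of at least 1 was also required, 253 when apum23 replicate 1 stood for the mutant, and 852 to 1842 with single arrays left out. Without wild-type replicate 1 the balance turned, to 779 higher and 851 lower, from 1208 and 314. Leaving out wild-type replicate 2 gave 861, and leaving out each mutant array gave 880, 898 and 852 in replicate order. Other RBR genes called higher numbered 1 instead of 0 after quantile normalization, with or without wild-type replicate 1. Conjugating enzyme genes called higher numbered 0 instead of 1 with median centring, the filter on dim probe sets, robust trended variances or apum23 replicate 1 alone, and 0 to 1 with single arrays left out. Those called lower numbered 3 after quantile normalization and 1 with median centring, instead of 0. The cause of these changes was not tested. Signal close to the background limits what can be said of the 7 dim loci.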
